A study of Sus scrofa with 9 samples.

Results

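Calcium phosphate mineral forms where phosphate is available and its inhibitors are scarce, and 10 genes that set this balance were followed through porcine valvular interstitial cells (PVICs). The genes were taken by symbol: ALPL, PHOSPHO1, ENPP1, ANKH, NT5E, SLC20A1, SLC20A2, MGP, SPP1 and BGLAP. All 10 had a row among the 19535 gene rows of the count table. Counts are given as CPM (a gene's counts relative to the total of its library) after TMM scaling, which corrects for library size and composition, with the SD over 3 libraries per group.

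The 9 libraries came from wild type interstitial cells of the aortic valves of pigs aged 4 to 5 months, in 3 groups. All cells were expanded in DMEM with fetal bovine serum, after the endothelial surface of the leaflets had been scraped off. The control group stayed in DMEM. The OIM group had osteogenic medium, which adds ascorbic acid (50 µg/mL), insulin and sodium dihydrogen phosphate (2 mmol/L), and the bFGF group had the same medium with 50 ng/mL basic fibroblast growth factor. The labels give 3 days of treatment, whereas the study's methods give a shorter time before RNA was taken. The osteogenic medium therefore carries the phosphate itself, so that the bFGF group differs from control by both the medium and the growth factor. Neither source says whether the 3 libraries of a group came from separate animals, so the p-values measure the spread between libraries, which may be technical.

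Pyrophosphate is the main soluble inhibitor of mineral growth. ENPP1 makes it outside the cell from ATP, ANKH promotes its appearance outside the cell, and ALPL (tissue-nonspecific alkaline phosphatase) splits it into phosphate. PHOSPHO1 releases phosphate from lipid head groups inside matrix vesicles, and NT5E (CD73) converts AMP to adenosine. SLC20A1 (PiT-1) and SLC20A2 (PiT-2) are sodium-dependent phosphate importers. MGP (matrix Gla protein) and SPP1 (osteopontin) bind mineral and inhibit its growth, and BGLAP (osteocalcin) is a bone matrix protein. MGP and BGLAP both carry glutamates that are carboxylated with vitamin K. Interstitial cells of the valve produce mineral in calcific aortic valve disease.

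The upstream sequences of 5 of the genes are shown because these genes include the ones with the greatest differences between bFGF and OIM (ANKH, NT5E and SPP1) and both Gla proteins. Each run holds the 200 bases before the annotated start of the gene in the RefSeq annotation of Sscrofa11.1, written 5′ to 3′ on the strand of the gene, and ends at the last base before transcription. Capitals mark matches, on either strand, to the letters of 5 motifs: AP-1 (TGANTCA), ETS (CCGGAA), RUNX (TGTGGT), GC box (GGGCGG) and TATA box (TATAAA).

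ANKH (chr16:4271074-4271273, minus strand): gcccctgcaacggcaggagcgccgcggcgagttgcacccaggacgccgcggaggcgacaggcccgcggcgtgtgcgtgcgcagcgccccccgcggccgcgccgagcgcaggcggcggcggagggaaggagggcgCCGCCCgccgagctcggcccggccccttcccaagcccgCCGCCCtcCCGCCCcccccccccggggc
NT5E (chr1:54400586-54400785, plus strand): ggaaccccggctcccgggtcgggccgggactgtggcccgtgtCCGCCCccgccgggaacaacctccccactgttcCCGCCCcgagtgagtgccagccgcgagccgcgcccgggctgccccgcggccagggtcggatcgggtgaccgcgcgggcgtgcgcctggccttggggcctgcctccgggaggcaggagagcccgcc
SPP1 (chr8:131085335-131085534, minus strand): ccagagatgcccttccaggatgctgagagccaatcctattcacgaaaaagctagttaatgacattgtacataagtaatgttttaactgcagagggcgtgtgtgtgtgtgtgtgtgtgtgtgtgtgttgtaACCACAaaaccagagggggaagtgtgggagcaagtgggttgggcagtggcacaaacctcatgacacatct
MGP (chr5:57665072-57665271, plus strand): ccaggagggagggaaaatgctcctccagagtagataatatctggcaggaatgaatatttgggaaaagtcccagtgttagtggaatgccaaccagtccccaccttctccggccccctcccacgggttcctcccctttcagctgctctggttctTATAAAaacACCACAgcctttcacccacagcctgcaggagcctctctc
BGLAP (chr4:93808807-93809006, minus strand): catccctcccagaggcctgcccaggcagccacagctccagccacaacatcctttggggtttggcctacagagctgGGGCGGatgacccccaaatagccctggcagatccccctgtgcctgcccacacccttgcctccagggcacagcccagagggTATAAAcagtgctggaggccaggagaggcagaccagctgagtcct

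The upstream bases of ANKH and NT5E were rich in G and C (84.5% and 79.5%) and held 3 and 2 GC boxes. Those of SPP1 and MGP had 47.5% and 53.5% G and C, no GC box and 1 RUNX match each, from 70 to 65 bases before the start in SPP1 and from 39 to 34 in MGP. A TATA box was found in MGP, from 48 to 43 bases before the start, and in BGLAP, from 45 to 40. Over 19531 protein-coding genes, windows of this length held a GC box in 43.8%, an ETS match in 12%, a RUNX match in 11.6%, a TATA box in 7.68% and an AP-1 match in 4.2%. Among the 10 genes, 7 had a GC box, 2 a RUNX match, 2 a TATA box, 1 (ALPL) an ETS match and 0 an AP-1 match. These are matches of letters in a short window, not sites.

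Counts on genes ranged from 57075793 to 64723837 in control, from 57682710 to 67371523 in OIM and from 46773376 to 48270827 in bFGF. OIM replicate 2 stood apart: its counts differed from the other OIM libraries by a mean chi-square of 18.7 and 18.8 per gene, against 4.62 to 11.4 for the other pairs within a group. Its values are named below where a result rests on it. The labelled cell type was checked against 9 markers of interstitial cells, all of them expressed in every group, with a summed level of 64808 to 70216 CPM in control, 61390 to 64291 in OIM and 37480 to 37835 in bFGF. Endothelial markers summed to 20.5 to 23.0 CPM in control, 20.1 to 21.2 in OIM and 31.9 to 34.5 in bFGF, and leukocyte markers to 13.0 to 16.3, 14.1 to 15.7 and 8.25 to 8.79 CPM. CD14 held most of the leukocyte sum and was the 1 leukocyte marker called (lower in bFGF than in OIM, 7.68 against 13.5 CPM). PTPRC, CD68 and CSF1R had group means of 0.215 to 0.448 CPM and were not called. Of the interstitial markers, COL1A1, COL1A2, COL3A1 and DCN were called lower and VIM higher in bFGF than in OIM. Cardiomyocyte markers summed to 1.96 to 2.59 CPM in control, 1.70 to 3.10 in OIM and 2.63 to 3.56 in bFGF, with TNNT2 and NPPA at 0 throughout and TNNI3 called higher in bFGF than in OIM (from 1.94 to 2.86 CPM). In bulk RNA, fewer cells of a type and less RNA per cell cannot be told apart.

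Per kilobase of exon, the scale on which genes can be compared, MGP was the most abundant of the 10 in control, at 288 ± 5.42 CPM per kb (SD, n = 3). SLC20A1 (68.1 ± 0.769), NT5E (51.0 ± 1.03), SPP1 (22.8 ± 1.31), ENPP1 (6.91 ± 0.241), SLC20A2 (4.58 ± 0.0510), ANKH (2.23 ± 0.149) and BGLAP (0.472 ± 0.0810) followed in CPM per kb, and the libraries of neighbours in this order did not overlap. MGP lay above 98.8% of the genes tested on this scale and BGLAP above 17.3%. ALPL (0.0376 ± 0.0301 CPM per kb) and PHOSPHO1 (0.00520 ± 0.00900) came last, and these 2 overlapped. In OIM the order was the same, but SLC20A1 overlapped NT5E (by OIM replicate 2) and ENPP1 overlapped SLC20A2. In bFGF, NT5E (134 ± 3.33 CPM per kb) stood above SLC20A1 (113 ± 2.56), while SLC20A2 (10.5 ± 0.161) and ANKH (8.85 ± 0.264) stood above SPP1 (6.27 ± 0.433) and ENPP1 (5.52 ± 0.294), and of the neighbours only ALPL and PHOSPHO1 overlapped.

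**Figure D1:**
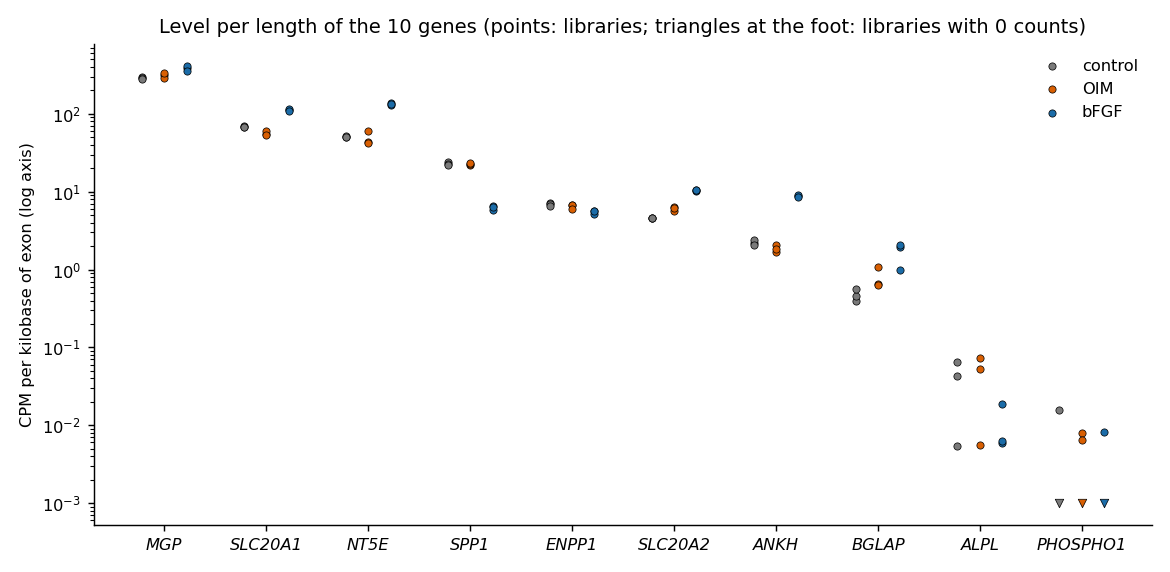
Level of the 10 genes per kilobase of exon (CPM per kb, log axis) in control, OIM and bFGF, with 1 point per library and a triangle at the foot where a group held libraries with 0 counts. MGP was highest in all groups, ANKH and NT5E stood higher and SPP1 lower in bFGF, and ALPL and PHOSPHO1 lay at the bottom.

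The phosphatases were close to undetected. ALPL (chromosome 6, 79589695 to 79649646) had 11, 8 and 1 counts in the control libraries, 9, 15 and 1 in OIM, and 1, 3 and 1 in bFGF. In both control and OIM, replicate 3 was as low as the bFGF libraries, so the groups overlapped. PHOSPHO1 (chromosome 12, 25441564 to 25449267) had 2, 0 and 0 counts in control, 1, 1 and 0 in OIM, and 0, 0 and 1 in bFGF. A count of 3 corresponded to 0.0460 to 0.0577 CPM in these libraries, and every PHOSPHO1 value lay under it. Neither gene passed the filter on low counts. Fitted without the filter, ALPL had an adjusted p of 0.130 for bFGF against OIM (log2 fold change -2.06, edgeR's quasi-likelihood test) and of 0.929 for OIM against control (log2 fold change 0.26, same test). No difference in ALPL or PHOSPHO1 was detected at this depth, and counts this low could miss one.

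The other 8 genes had at least 15 counts in every library and were tested with all 13662 genes that passed the filter. A call needed both an adjusted p no higher than 0.05 and a log2 fold change of 0.5 or more in size, the limits of the study's methods.

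Osteogenic medium was compared with control to ask which of these genes the medium moves. None of the 8 tested genes was called (0 higher, 0 lower), where 1.49% of all genes tested were called higher and 0.864% lower. DESeq2 also called 0. By edgeR's unadjusted p under 0.05, 4 of these genes passed when the fold limit was dropped and 0 when it was kept, where 26.2% and 4.02% of all genes tested passed. In 4 of the 8 the OIM libraries did not overlap the control libraries, as in 28.8% of all genes. The median log2 fold change of the 8 genes was -0.035, against -0.0019 over all genes tested.

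The 2 phosphate importers had differences of opposite sign in OIM, both under the fold limit. SLC20A1 (chromosome 3, 43844716 to 43860547) had 237, 232 and 233 CPM in control and 188, 209 and 186 CPM in OIM. SLC20A2 (chromosome 17, 11435435 to 11549623) had 34.5, 35.1 and 34.5 CPM in control and 43.0, 48.3 and 47.5 CPM in OIM. All OIM libraries lay below all control libraries for SLC20A1 and above them for SLC20A2. The log2 fold change was -0.27 for SLC20A1 (standard error 0.042, adjusted p = 0.000182, edgeR) and 0.42 for SLC20A2 (standard error 0.050, adjusted p = 9.33e-06, edgeR). Within a library the level of SLC20A1 per kb was 14.6 to 15.2 times that of SLC20A2 in control, 8.62 to 9.65 times in OIM and 10.5 to 11 times in bFGF, so the 3 groups did not overlap in this ratio.

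**Figure D2:**
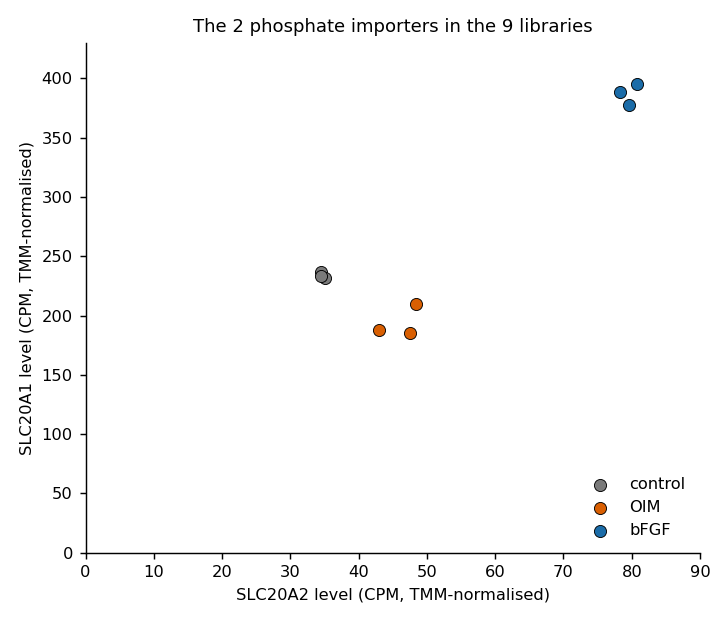
SLC20A1 against SLC20A2 (both in CPM) in the 9 libraries, 1 point per library, coloured by group. The OIM libraries lay below and to the right of the control libraries, and the bFGF libraries, at 377 to 395 CPM of SLC20A1 and 78.3 to 80.8 CPM of SLC20A2, lay above and to the right of both.

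On the side of pyrophosphate supply, ANKH (chromosome 16, 4095582 to 4271073) had 29.6, 32.0 and 28.0 CPM in control and 22.6, 27.7 and 24.6 CPM in OIM, with no overlap. Its log2 fold change was -0.25 (standard error 0.066, adjusted p = 0.0125, edgeR), under the fold limit, and the adjusted p was 0.0775 without OIM replicate 1, 0.0795 without control replicate 2 and 0.000142 without OIM replicate 2. ENPP1 (chromosome 1, 31724290 to 31796594) had 35.7, 35.2 and 33.4 CPM in control and 33.6, 33.8 and 30.2 CPM in OIM. These groups overlapped, and the difference of -0.10 (95% interval -0.23 to 0.03 on the log2 scale) did not pass.

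NT5E (chromosome 1, 54400786 to 54450743) had 211, 216 and 207 CPM in control and 182, 251 and 172 CPM in OIM. OIM replicate 2 was the highest of these 6 libraries and the other OIM libraries were the lowest. With all libraries the log2 difference was -0.06 (95% interval -0.25 to 0.12), and without OIM replicate 2 it was -0.25 (adjusted p = 7.10e-06, edgeR), also under the fold limit. Without OIM replicate 1 or 3 the sign turned (0.0049 and 0.037).

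Among the mineral-binding proteins, MGP (chromosome 5, 57665272 to 57669360) had 173, 168 and 167 CPM in control and 187, 168 and 198 CPM in OIM. OIM replicate 2 lay within the control range, and the log2 difference was 0.12 (95% interval 0.01 to 0.24, adjusted p = 0.164, edgeR) with it and 0.19 (adjusted p = 0.00579, edgeR) without it. Without OIM replicate 3 the MGP difference was 0.07 (adjusted p = 0.502, edgeR). SPP1 (chromosome 8, 131077786 to 131085334) had 37.4, 34.4 and 33.6 CPM in control and 34, 35.3 and 35.6 CPM in OIM, a log2 difference of -0.0047 (95% interval -0.14 to 0.13) whose sign turned under 4 of the settings tried. BGLAP (chromosome 4, 93807703 to 93808806) had 15, 19 and 23 counts in control and 24, 49 and 25 in OIM. In CPM the OIM libraries all lay above control, with a log2 fold change of 0.75 (95% interval -0.15 to 1.65) that did not pass (adjusted p = 0.289, edgeR). Without OIM replicate 2, the highest OIM library at 0.752 CPM, it was 0.44.

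**Figure D3:**
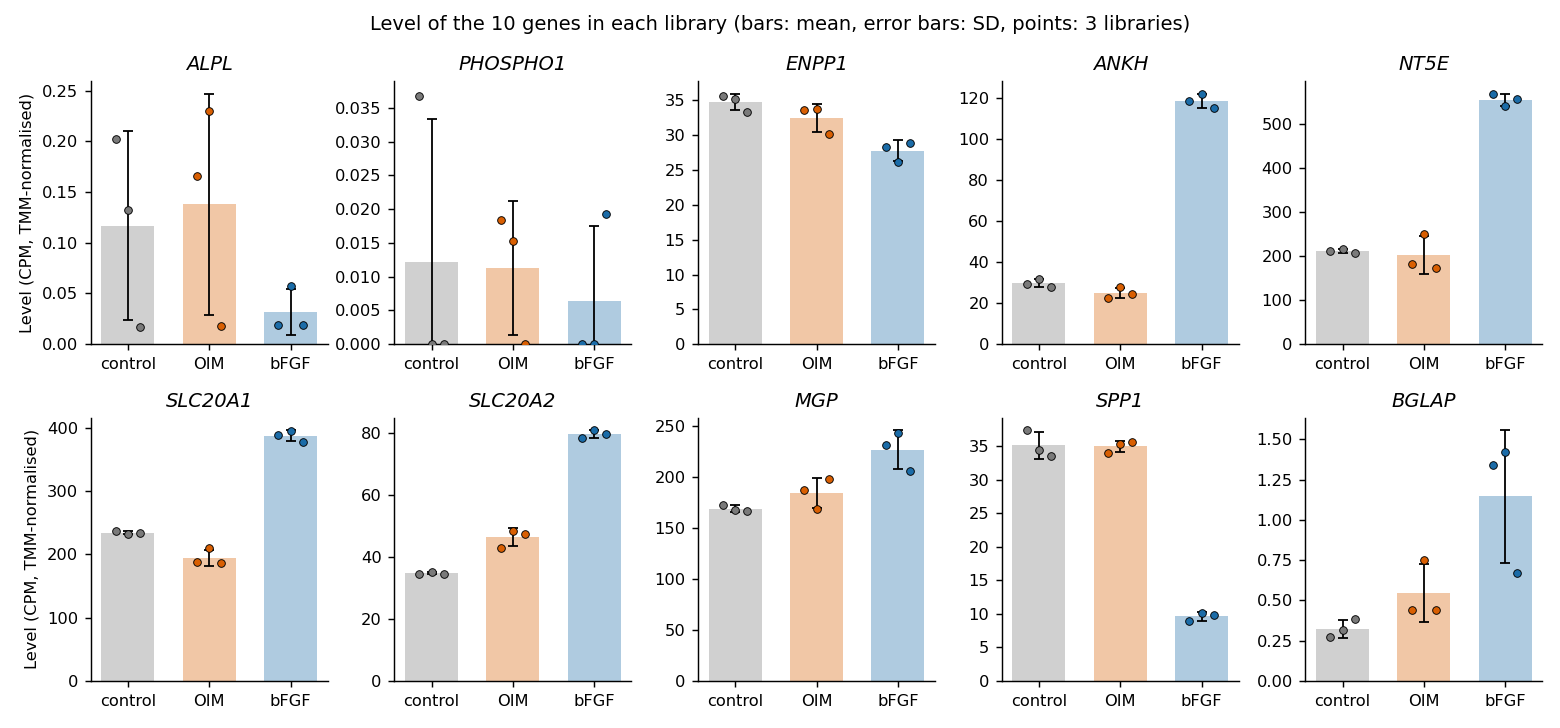
Level of each of the 10 genes in CPM by group, on axes that start at 0, with bars for the mean, error bars for the SD and points for the 3 libraries. ANKH, NT5E, SLC20A1 and SLC20A2 were higher and SPP1 was lower in every bFGF library than in any other library, and for BGLAP bFGF replicate 3 lay within the OIM range.

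The bFGF group was compared with OIM because the study used bFGF to inhibit calcification in this medium. Of the 8 tested genes, 5 were called higher in bFGF than in OIM (ANKH, NT5E, BGLAP, SLC20A1 and SLC20A2) and 1 was called lower (SPP1), where 17.7% of all genes tested were called higher and 18.4% lower. ANKH rose 4.74-fold, NT5E 2.75-fold, SLC20A1 1.99-fold and SLC20A2 1.72-fold. The remaining genes, ENPP1 and MGP, differed by less than the fold limit. In 7 of the 8 genes the groups did not overlap, as in 72.1% of all genes. The median log2 fold change of the 8 was 0.89, against -0.0029 over all genes tested. Over all genes, 49.0% of the calls were higher in bFGF, and 68.8% with scaling by library totals alone, which moved the median of all genes to 0.22.

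ANKH had the greatest rise of the 8. It had 118, 122 and 115 CPM in bFGF, against 22.6, 27.7 and 24.6 CPM in OIM. Every bFGF library lay far above every OIM library, and the log2 fold change was 2.24 (standard error 0.065, adjusted p = 1.38e-16, edgeR). ENPP1, the enzyme that makes pyrophosphate, had 28.4, 26.1 and 28.9 CPM in bFGF, below all OIM libraries, a log2 difference of -0.23 (standard error 0.063, adjusted p = 0.00342, edgeR). Scaled by library totals alone, without TMM, the ENPP1 difference was -0.0060 (adjusted p = 0.938, edgeR). The level of ANKH per kb was 0.311 to 0.341 times that of ENPP1 in control, 0.253 to 0.309 times in OIM and 1.5 to 1.76 times in bFGF.

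The last 1531 bases of ANKH overlap OTULIN on the other strand, and the sources used here do not say whether reads were counted by strand. For OTULIN the OIM mean was 41.1 ± 1.55 CPM and the bFGF mean 42.2 ± 2.02 CPM (SD, n = 3). Its log2 difference of 0.04 was not called. One circular RNA of the table (circRNA_2681, chromosome 16, 4141884 to 4175644) lay within ANKH, with 3 junction reads in bFGF replicate 1 and 0 in the other 8 libraries.

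NT5E had 569, 541 and 556 CPM in bFGF, more than any OIM library, including OIM replicate 2 at 251 CPM. Its log2 fold change was 1.46 (standard error 0.087, adjusted p = 9.00e-12, edgeR), and 1.67 without OIM replicate 2. NT5E is expressed by mesenchymal and endothelial cells, and 4 of 6 endothelial markers were also called higher in bFGF, as were 17.7% of all genes tested. PECAM1 was at 11.8 CPM in OIM and 20.7 CPM in bFGF, CDH5 at 5.80 and 8.24, and TEK at 0.740 and 1.52. The other marker called, CLDN5, was at 0.0601 and 0.336 CPM, where 3 counts were 0.0460 to 0.0553 CPM in OIM. CLDN5 passed the filter on low counts through its bFGF libraries, so its call adds no support. TIE1 (1.85 and 2.03) and VWF (0.303 and 0.228) were not called. The part of endothelial cells in the NT5E rise was not tested. The first 214 bases of the NT5E gene overlap a non-coding gene on the other strand, LOC102157437, whose 9 transcripts summed to 0.890 ± 0.368 CPM under OIM and 2.07 ± 0.389 CPM under bFGF (SD, n = 3).

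Both phosphate importers rose. SLC20A1 had 389, 395 and 377 CPM in bFGF (log2 fold change 0.99, standard error 0.042, adjusted p = 4.42e-14, edgeR) and SLC20A2 had 78.3, 80.8 and 79.6 CPM (log2 fold change 0.78, standard error 0.049, adjusted p = 2.13e-11, edgeR). In SLC20A1, where OIM lay below control, bFGF lay above both, and in SLC20A2 the libraries stood in the order control, OIM, bFGF with no overlap. SLC20A2 contains a short non-coding gene on the other strand, LOC110257462, with at most 5.62 estimated counts in any library.

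Of the mineral-binding proteins, SPP1 fell, BGLAP rose and MGP did not reach the fold limit. SPP1 had 8.87, 10.1 and 9.89 CPM in bFGF, below every OIM library. Its log2 fold change was -1.86 (standard error 0.070, adjusted p = 7.76e-15, edgeR). MGP had 231, 243 and 206 CPM in bFGF, above all OIM libraries, a log2 difference of 0.30 (standard error 0.056, adjusted p = 9.54e-05, edgeR). Scaling by library totals alone gave 0.52, and MGP was then called higher.

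BGLAP had 72, 74 and 35 counts in bFGF, which are 1.34, 1.42 and 0.673 CPM. The bFGF libraries 1 and 2 lay above every OIM library, and bFGF replicate 3 lay below OIM replicate 2 at 0.752 CPM. The log2 fold change was 1.06 (standard error 0.40, adjusted p = 0.0232, edgeR). The call was lost when OIM replicate 1 or 3, or bFGF replicate 1 or 2, was left out, with adjusted p from 0.0813 to 0.108 in edgeR. PAQR6, on the other strand 78 bases away, was called lower, from 7.06 to 3.18 CPM.

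**Figure D4:**
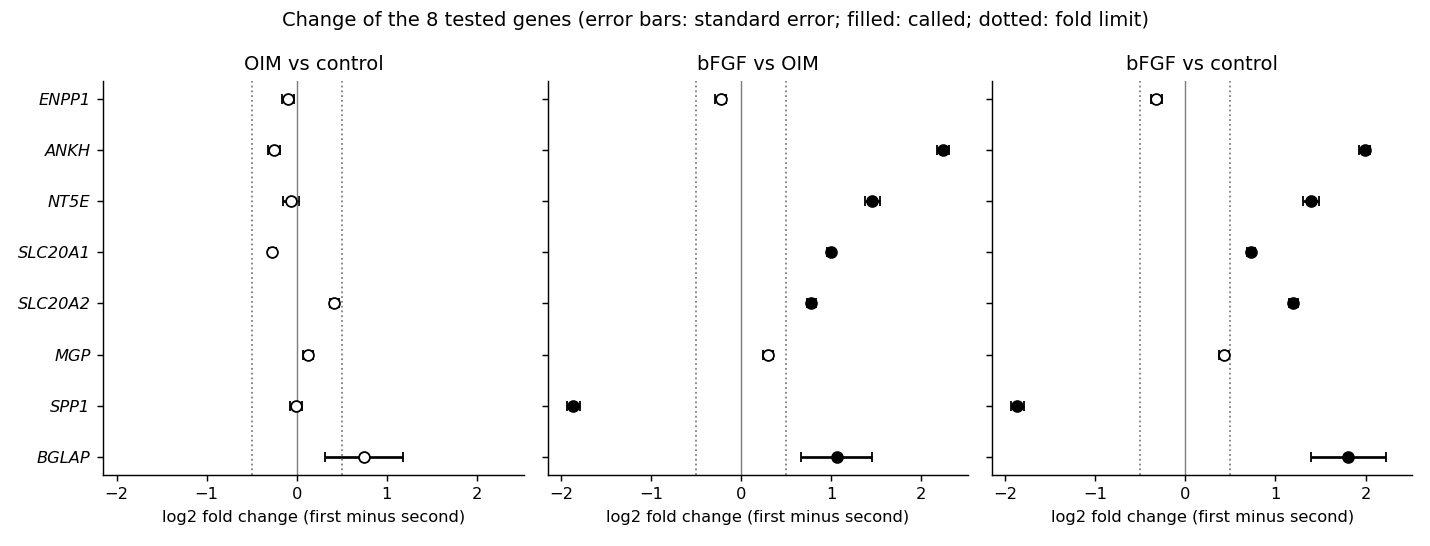
log2 fold changes of the 8 tested genes in the 3 comparisons (points; error bars, standard error), with filled points for called genes and dotted lines at the fold limit of 0.5. No point is filled for OIM vs control, and 6 are filled in each comparison with bFGF.

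Against control, the bFGF group had the same 5 genes called higher and SPP1 called lower, with 18.9% of all genes called higher and 20.0% lower. Over all genes 48.5% of the calls were higher, and 68.1% with library totals alone. This comparison shares its bFGF libraries with the one before, and its control libraries with the first. The log2 fold changes were 1.99 for ANKH, 1.81 for BGLAP, 1.39 for NT5E, 1.20 for SLC20A2, 0.73 for SLC20A1 and -1.87 for SPP1. MGP (0.42, adjusted p = 1.31e-06, edgeR) and ENPP1 (-0.32, adjusted p = 0.000128, edgeR) were under the fold limit. Scaled by library totals alone, the ENPP1 difference from control was -0.099 (adjusted p = 0.185, edgeR). The median log2 fold change of the 8 was 0.96, against -0.016 over all genes. All 8 genes had no overlap between bFGF and control, as had 73.7% of all genes. For BGLAP the bFGF call against control held without any single library, with log2 fold changes from 1.63 to 2.08. Under a filter of at least 1 CPM in 3 libraries BGLAP was not tested in any comparison.

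The pathways around these genes were described with 6 lists of 66 genes, 51 of which were tested. For OIM against control 0 of the 51 were called by edgeR, where 1.49% of all genes were called higher and 0.864% lower, and 0 by DESeq2. By edgeR's unadjusted p under 0.05, 20 of them passed when the fold limit was dropped and 1 when it was kept (all genes, 26.2% and 4.02%). For bFGF against OIM 8 were called higher and 15 lower, where 17.7% of all genes were called higher and 18.4% lower, with a median log2 fold change of -0.0029. The counts and medians of the single lists below stand against these same values, and with 7 to 11 genes a list none is called particular to its list. With library totals alone these counts were 11 and 13.

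Of 11 tested genes that handle pyrophosphate and purines, 4 were called higher and 1 lower, against 17.7% and 18.4% of all genes (median log2 fold change 0.15, against -0.0029). ENTPD3, an ectonucleotidase that breaks down ATP and ADP, rose 8.64-fold, with a mean of 2.77 ± 0.326 CPM in OIM and of 24.0 ± 1.64 CPM under bFGF (SD, n = 3). PPA2, the mitochondrial pyrophosphatase, rose by 0.93 on the log2 scale. ADORA2A, an adenosine receptor, fell by 1.81 on the log2 scale, from 9.66 ± 0.233 CPM to 2.75 ± 0.585 CPM (SD, n = 3). The adenosine receptor ADORA2B and the nucleoside transporter SLC29A1 rose by 0.51 and 0.52 on the log2 scale, close to the fold limit. ADORA2B was not called without OIM replicate 1, OIM replicate 3 or bFGF replicate 2, nor SLC29A1 without bFGF replicate 2. ABCC6, whose loss causes ectopic calcification, had too few counts to be tested, like PANX3, ADORA3 and ACP5.

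In the list of phosphate transport and sensing 7 genes were tested, 0 were called higher and 2 lower (all genes, 17.7% and 18.4%), with a median log2 fold change of -0.61. The lowest values were those of STC1 (-3.21) and SLC34A2 (-1.61), neither of them called. Both averaged under 3 counts in bFGF (0.00621 and 0.0499 CPM, against 0.0559 to 0.0577 CPM for 3 counts). The median of this list therefore leans on genes near the floor. SLC25A3 (0.11) and PHEX (0.24) had positive log2 differences, like XPR1, and were not called. XPR1, the phosphate exporter, averaged 33.3 ± 2.34 CPM under OIM and 38.5 ± 1.34 CPM under bFGF (SD, n = 3). Its log2 difference of 0.21 was under the fold limit (adjusted p = 0.00467, edgeR). STC2, a secreted stanniocalcin, fell by 0.71 on the log2 scale and KIDINS220, a scaffold protein that binds XPR1, by 0.61, and neither was called with library totals alone (-0.49 and -0.39).

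The vitamin K list bears on MGP and BGLAP. Of 9 tested genes 0 were called higher and 4 lower (all genes, 17.7% and 18.4%), with a median log2 fold change of -0.37. GGCX, the carboxylase that modifies Gla proteins, fell by 0.74 on the log2 scale, from a mean of 321 ± 4.49 CPM to 192 ± 2.84 CPM (SD, n = 3). The other calls were Gla proteins. GAS6 fell by 1.55 and PROS1 (protein S) by 1.07, and PRRG4, also called lower, was at 14.5 ± 1.44 CPM in OIM against 7.22 ± 0.479 in bFGF (SD, n = 3). VKORC1, which recycles vitamin K, had a log2 difference of -0.37 and was not called.

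Of 7 tested mineral-binding matrix proteins 3 were called lower and 0 higher (all genes, 18.4% and 17.7%), with a median of -0.31. ASPN, a collagen-binding proteoglycan, fell from 233 ± 14.5 to 31.9 ± 3.91 CPM, SPARC (osteonectin) from 5481 ± 445 to 1564 ± 25.1 CPM and OMD (osteomodulin) from 17.0 ± 0.503 to 9.50 ± 2.00 CPM (SD, n = 3). IBSP, MEPE, AHSG and FETUB had too few counts to be tested. The matrix vesicle list had 1 call higher and 2 lower among 8 genes (median -0.18), near the 17.7% and 18.4% of all genes. SORT1, which sorts alkaline phosphatase into vesicles, fell by 0.96 and the tetraspanin CD9 by 0.81, and RAB27A rose by 0.53. The RAB27A call was lost without OIM replicate 3.

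Among 9 receptors of osteopontin 3 were called higher and 3 lower (all genes, 17.7% and 18.4%), with a median of -0.36. ITGB3 rose from 61.1 ± 7.32 to 236 ± 2.69 CPM (SD, n = 3), ITGA4 by 1.05 and CD44 by 0.73 on the log2 scale. ITGA8 fell from 1204 ± 145 to 229 ± 13.6 CPM (SD, n = 3), ITGAV by 0.84 and ITGB1 by 0.81. ITGAV and ITGB3, which pair into 1 receptor, had calls in opposite directions.

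**Figure D5:**
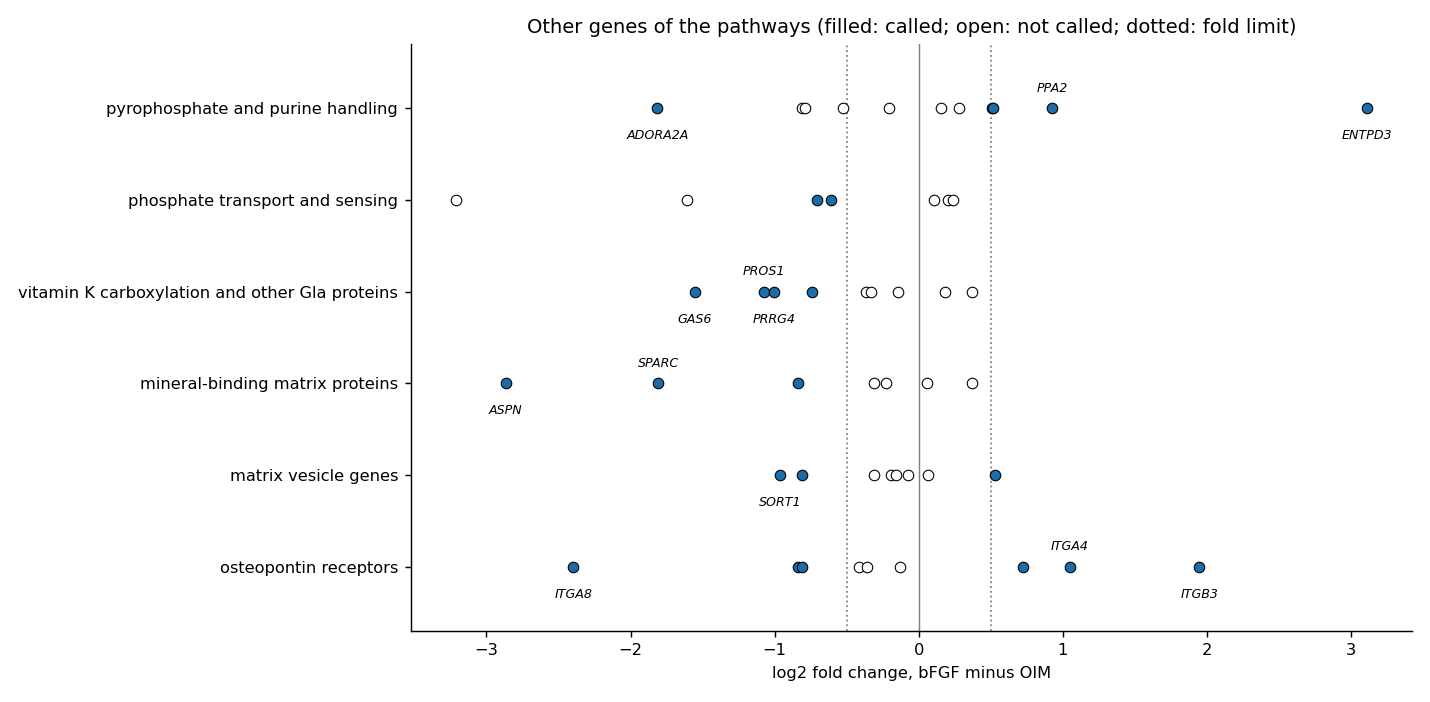
log2 fold changes of bFGF against OIM for the 51 tested genes of the 6 lists, 1 row per list, with filled points for called genes, names for those called with a change of at least 0.9, and dotted lines at the fold limit. The vitamin K, mineral-binding and phosphate transport lists hold filled points on the lower side alone (4, 3 and 2). Filled points lie on both sides for the osteopontin receptors (3 higher and 3 lower), the matrix vesicle list (1 and 2) and the pyrophosphate and purine list (4 and 1).

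As a description of shared patterns, the genes whose log2 CPM ran most like a member over the 9 libraries were taken from 11845 others with a mean of at least 1 CPM, for the 7 members at that level (not ALPL, PHOSPHO1 or BGLAP). The 9 points share their 3 groups and their libraries' depth, so no test is given. For ANKH they were MMP1, TGFBR2 and LRRK2 (Pearson r of 0.998 for each), and 14.0% of the genes compared reached an r of 0.95 with it. NT5E ran with ETV5, RPA1 and PKP4 (r = 0.998), SPP1 with SYNE1, PDK1 and NEDD9 (r = 0.998 to 0.999), SLC20A1 with GNPTAB, PSMD2 and VIM (r = 0.994 to 0.997) and SLC20A2 with IMPDH2, MTCL1 and ADGRA3 (r = 0.995 to 0.997). For ENPP1 (DNAJC30, ZNHIT1 and DDX6, r = 0.967 to 0.977) and MGP (DPH3, TWIST1 and EPB41L1, r = 0.962 to 0.973) only 0.101% and 0.0760% of the genes compared reached 0.95.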

How the data were processed

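Gene counts per library came from RNA-seq of PVICs in 3 groups of 3 libraries. Per the study's methods the authors trimmed reads with Cutadapt and aligned them to susScr11 with STAR, whereas the submitters' processing notes name Trimmomatic, HISAT2, StringTie and Sscrofa11.1. The labels name a stranded total RNA kit with ribosomal depletion, the methods a poly-A kit. The counter and its use of strand are not given in the sources used here. The authors deposited counts without normalization: whole numbers for genes and circRNAs, and estimated counts for non-coding transcripts. The table's 19 unnamed columns were not used.

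Genes passing filterByExpr were normalized by TMM and tested with edgeR 4.0.16 (quasi-likelihood, 1 fit over all groups, 6 residual degrees of freedom, Benjamini-Hochberg adjustment over 13662 genes) in R 4.3.3. Standard errors are the log2 fold change divided by the square root of F. The test was checked on simulated data. Exon lengths (99.9% of tested genes matched by symbol) and upstream bases came from RefSeq on Sscrofa11.1. Alternatives were DESeq2 1.42.0, other size factors, filters, fold limits, fits on 2 groups, a replicate block and leaving out single libraries.

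The text names the 10 members, up to 4 called genes per list with the largest change (ITGB1, CD44 and ADORA2B, and members that did not pass, were added after their values were seen), and the 3 genes most like each of 7 members (not ALPL, PHOSPHO1 or BGLAP, under 1 CPM). Members and lists were chosen with earlier results of these data known.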

Additional observations from a re-analysis of the deposited data

Results flagged for a closer look

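Among the non-coding rows, which the gene comparisons do not use, the 9 transcripts of LOC102157437 (on the strand opposite NT5E, overlapping its first 214 bases) summed to 2.07 ± 0.389 CPM in bFGF, against 1.11 ± 0.407 in control and 0.890 ± 0.368 in OIM (SD, n = 3). The bFGF libraries (1.77 to 2.51 CPM) all lay above the control libraries (0.721 to 1.53 CPM). The difference was not tested, and the counting by strand is not given.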

How the results depend on the processing

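Among alternative values of the members' log2 fold changes, 369 kept their sign and whether the gene was called, 6 changed sign, 4 lost a call and 2 gained one. Being called needs both limits, and some values crossed 1 of them with the call the same: ENPP1 with library totals alone, and in OIM against control ANKH, NT5E, MGP and BGLAP without single libraries, as given above. For SPP1 in OIM against control the sign turned to 0.0019 with median-of-ratios size factors, 0.0025 with DESeq2, 0.042 without control replicate 1 and 0.016 without OIM replicate 1 (range without single libraries -0.036 to 0.042), and for NT5E to 0.0049 and 0.037 without OIM replicate 1 and 3 (range -0.25 to 0.037). With library totals alone 3733 and 3931 genes were higher than in OIM and control, and MGP was called (0.52 and 0.65). Without a fold limit, 1051 genes were higher and 802 lower in OIM than in control, 4620 and 4583 in bFGF than in OIM, and 4709 and 4881 in bFGF than in control. SLC20A2 (1 higher), ANKH and SLC20A1 (2 lower) were then called in OIM, and 2 members lower in both bFGF comparisons (ENPP1 and SPP1). With a limit of 1 the counts of genes were 63 and 28, 1216 and 1245, and 1339 and 1417, and 3 members were higher in bFGF than in OIM. The 4 fits without OIM replicate 1 or 3, or bFGF replicate 1 or 2, lost BGLAP in bFGF against OIM (0.88 to 0.94). A filter of 1 CPM in at least 3 libraries removed BGLAP from the test, which left 4 members higher in each bFGF comparison. Leaving out single libraries gave 177 to 210 genes higher and 101 to 146 lower in OIM, 2327 to 2584 and 2421 to 2529 in bFGF against OIM, and 2542 to 2716 and 2645 to 2734 in bFGF against control. The causes were not tested. Labels share replicate numbers between groups. The replicate block gave 195 and 114 genes, 2413 and 2504, and 2572 and 2713 in the same order, and changed no call among members (for ANKH in bFGF against OIM, 2.25, adjusted p = 5.58e-16, edgeR). With each group's mean subtracted from log2 CPM, same-numbered libraries had correlations of -0.032 to 0.0035 between groups. On these differences from the group mean, 0 of 9 libraries correlated best with its own number. ALPL and PHOSPHO1 had at most 15 and 2 counts in a library, and BGLAP at most 74.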
